A study of Mus musculus with 5 samples.

Results

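The major urinary proteins (MUPs) are small secreted carriers of the lipocalin family. Mouse liver makes them in large amounts, they pass from blood into urine, and there they bind and slowly release volatile pheromones. Their genes form 1 tandem cluster on chromosome 4 and are male-biased in liver, where the pulsed male pattern of growth hormone acts on them through the transcription factor STAT5b. The genes described here are 10 of the 32 rows of the Mup family among the 33589 gene rows of the deposited table. Mup3, Mup20 and Mup21 are called peripheral because their sequences diverge from those of the other members. Mup1, Mup7, Mup8, Mup9, Mup16, Mup17 and Mup18 are called central because they are near-identical copies. They were chosen from the measured FPKM of these same livers, so the comparison of genotypes is given for them as a description and without a test.

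RNA-seq gave 5 liver libraries from male mice, 6 weeks old per the labels, that ate a high-fat diet over 4 weeks. The 2 controls carried floxed alleles of Heg, the endothelial receptor gene Heg1, and no Cre (Hegfl/fl). The 3 knockouts carried the same floxed alleles and a Cre driven by Lyve1 (Lyve1-Cre;Hegfl/fl), a gene of lymphatic and liver sinusoidal endothelium, so the deletion is directed at endothelial cells while MUPs are made by hepatocytes. The series title speaks of hepatocytes but the tissue label is liver. Nothing in the labels says that the libraries were processed as separate batches or that each library is a separate animal, so the spread between libraries may be technical. In this report a liver means a library, and n counts libraries.

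Levels are given as FPKM, in which fragment numbers are divided by the length of the transcript and by library size, and can therefore be compared between genes. The read depth behind them is unknown. FPKM sums per library were between 797692 and 820498. Heg1 itself was at 0.48 and 0.35 FPKM in the controls, against 0.45, 0.43 and 0.50 FPKM in the knockouts. These ranges overlap, so Heg1 in whole liver does not check the labels, and "knockout" below means a library labelled as one. Lyve1 was at 7.34 and 8.92 FPKM in the controls, against 3.90, 7.32 and 10.49 FPKM in knockouts. All 8 hepatocyte markers looked at, Alb and Apoa1 among them, were abundant in every library, with a summed FPKM between 67027 and 84166. Knockout 1 stood apart in 6 erythrocyte markers, whose summed FPKM was 135.8 and 146.1 in controls and 1329, 243.9 and 140.5 in knockouts 1, 2 and 3.

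The 10 genes lie within a span of 2.19 Mb (GRCm38, chr4:59956804-62150863) that holds 48 annotated Mup genes, 22 of them protein-coding, in GENCODE mouse release 21. All 10 are on the minus strand. Mup21 has 6 exons and each of the other 9 has 7. From the low-coordinate end, Mup7 comes first at chr4:60066469-60070475, followed by Mup8 at chr4:60218621-60222599, Mup9 at chr4:60418046-60421952 and Mup1 at chr4:60498012-60501960. The second stretch of central genes holds Mup16 at chr4:61515592-61519531, Mup17 at chr4:61591929-61595871 and Mup18 at chr4:61670177-61674136. The peripheral genes close the cluster, with Mup20 at chr4:62050234-62054158, Mup3 at chr4:62083476-62087342 and Mup21 at chr4:62147932-62150863.

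Sequence separates the central from the peripheral genes and sets how far reads can tell the members apart. Among the 21 pairs of central members the coding sequences were between 98.71% and 100% identical, with a median of 99.08%. Identity leaves out gaps. Mup9 and Mup18 differed at 0 of 543 aligned bases, with a gap of 3 bases besides. Pairs of a central and a peripheral member shared between 83.98% and 91.53%, Mup20 being the nearest of the peripheral genes to the central ones. Such divergence is not particular to these genes. With Mup1, the other Mup genes Mup4, Mup5 and Mup6 shared 89.76%, 90.24% and 90.19%, and Mup20 shared 91.16%. Mup3 and Mup21 were 96.34% identical to each other. The stretch below, bases 160 to 259 of the Mup17 coding sequence, is the window of 100 bases, begun at a codon, where Mup20 differs most from Mup17. It therefore shows more divergence than is typical. Over the whole coding sequence these genes differ at 46 of 543 aligned bases. Sequences are from the GENCODE transcripts, read 5′ to 3′ on the coding strand, and capitals mark bases that differ from Mup17.

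Mup17: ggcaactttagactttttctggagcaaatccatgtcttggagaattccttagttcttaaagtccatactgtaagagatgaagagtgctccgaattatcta
Mup7: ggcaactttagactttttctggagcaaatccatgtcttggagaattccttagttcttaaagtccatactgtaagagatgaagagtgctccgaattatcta
Mup16: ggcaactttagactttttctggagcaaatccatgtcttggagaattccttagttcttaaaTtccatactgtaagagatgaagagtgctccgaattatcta
Mup8: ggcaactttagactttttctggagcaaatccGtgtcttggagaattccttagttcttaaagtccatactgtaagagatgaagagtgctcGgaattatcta
Mup20: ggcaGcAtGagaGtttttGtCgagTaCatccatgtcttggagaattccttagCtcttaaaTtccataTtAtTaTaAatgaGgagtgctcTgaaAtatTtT
Mup3: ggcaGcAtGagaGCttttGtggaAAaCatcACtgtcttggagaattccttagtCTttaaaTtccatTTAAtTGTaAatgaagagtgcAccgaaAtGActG
Mup21: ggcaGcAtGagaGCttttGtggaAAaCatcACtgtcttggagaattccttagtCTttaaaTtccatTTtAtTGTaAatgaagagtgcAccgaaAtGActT

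In this stretch Mup7 and Mup17 were the same, the other central members differed from Mup17 at 1 or 2 bases, and Mup20, Mup21 and Mup3 differed at 20, 26 and 27 bases. Over the whole transcript, windows of 100 bases that occur in no other gene's annotated transcript made up 97.1% of Mup3 and 95.5% of Mup21. The share was 61.2% in Mup20, whose remaining windows were shared with the pseudogene Mup-ps19. Among the central members it was 40.6% in Mup17, 22.2% in Mup8, 19.9% in Mup16, 14.9% in Mup9, 12.9% in Mup7 and Mup18, and 12.8% in Mup1. The values of Mup3 and Mup21 therefore rest mostly on their own sequence. Those of single central members depend on how the authors' pipeline divided reads that fit several copies, and the summed central FPKM is given beside them for that reason. No 2 of the expressed Mup rows held the same 5 values.

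Of the peripheral genes, Mup20 encodes darcin, the male urinary protein that attracts females. It was at 9149.83 and 12886.09 FPKM in the controls, against 14505.05, 11020.75 and 15860.99 FPKM in knockouts 1, 2 and 3. Knockout 2 lay below control 2, so the groups overlapped. The knockout mean was 1.25 times the control mean (13796 ± 2497, SD, n = 3, against 11018 ± 2642, SD, n = 2). On the log2(FPKM + 1) scale, used for all log2 differences here (knockout minus control), this was 0.33 with a standard error (SE) of 0.21. It was 0.08 without control 1 and 0.58 without control 2, the controls being the libraries that decide its size.

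Mup3 was the member with the narrowest spread, at 11499.99 and 10151.96 FPKM in the controls, against 11736.62, 12593.62 and 11644.19 FPKM in knockouts. The groups did not overlap, but the lowest knockout was only 1.01 times the highest control. The ratio of means was 1.11 and the log2 difference 0.15 (SE 0.11), which became 0.24 without control 1 and 0.06 without control 2. Mup20 and Mup3 held rank 6 to 14 and rank 7 to 11 among all genes by FPKM in the 5 livers.

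Mup21, the third peripheral gene, was expressed at a far lower level than its neighbours. It had 254.98 and 339.22 FPKM in the controls, against 585.12, 383.49 and 383.07 FPKM in knockouts. All 3 knockouts lay above both controls, with knockout 1 well above the other two. The means stood at a ratio of 1.52 and the log2 difference was 0.58 (SE 0.22). Without control 1, or without knockout 1, the log2 difference was 0.38.

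**Figure D1:**
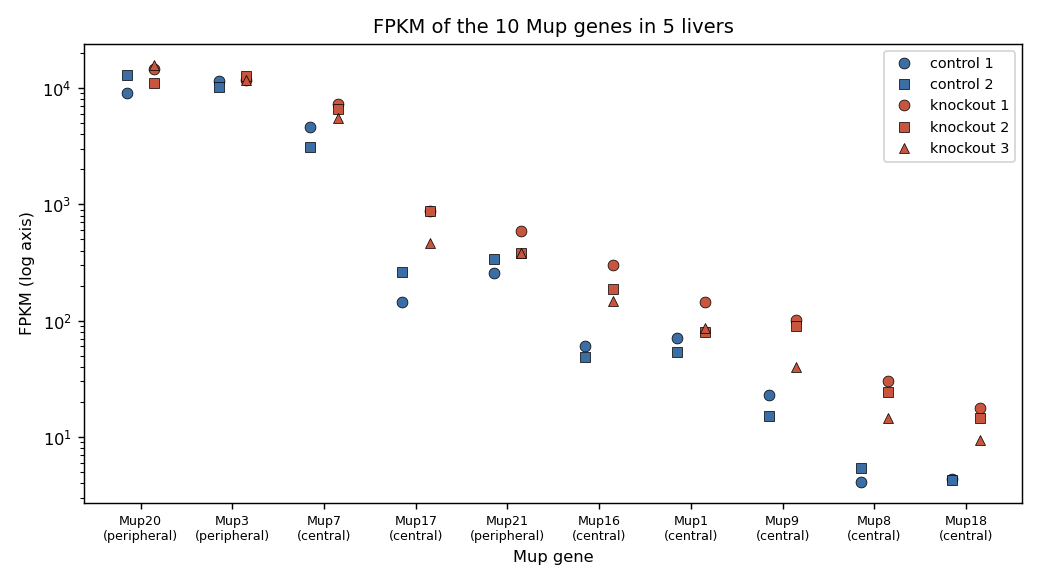
FPKM of the 10 Mup genes (log axis) in each of the 5 livers, ordered by mean level from left to right; blue symbols are controls and red symbols knockouts, with the shape giving the library number. All knockouts lie above both controls in 9 of the 10 genes, Mup20 being the exception, beside 18.9% of all 10820 genes tested. The 10 genes were chosen on this contrast, so nothing is read from their count. The gap between the colours is widest for Mup8, Mup16 and Mup18, with the lowest knockout at 2.71, 2.46 and 2.17 times the highest control.

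Mup7 carried most of the central expression. It was at 4639.76 and 3144.92 FPKM in the controls, against 7275.68, 6594.83 and 5559.57 FPKM in knockouts. The groups were separate, although the controls differed from each other by 1.48 times. Knockout over control means gave a ratio of 1.66 and the log2 difference was 0.75 (SE 0.19). Leaving out control 1 gave 1.03 and leaving out control 2 gave 0.47, so the size depends on which control is used.

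Mup17 came next, at 145.34 and 262.51 FPKM in the controls, against 869.41, 873.21 and 461.55 FPKM in knockouts. Even the lowest knockout, knockout 3, was above the higher control. The ratio of means was 3.60 and the log2 difference 1.85 (SE 0.35). With 40.6% of windows of its own, Mup17 is the central member whose value rests least on shared sequence.

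Mup16 had 60.01 and 48.97 FPKM in the controls, against 300.6, 187.25 and 147.75 FPKM in knockouts. The knockouts spread by 2.03 times among themselves and still all lay well above the controls. The means stood at a ratio of 3.89 and the log2 difference was 1.88 (SE 0.29). Mup9 showed a like pattern at a lower level, with 22.94 and 15.1 FPKM in the controls, against 100.63, 89.2 and 40.19 FPKM in knockouts. Its groups were separate, the ratio of means was 4.03 and the log2 difference 1.88 (SE 0.40).

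Mup8 and Mup18 were the least expressed members. Mup8 had 4.11 and 5.41 FPKM in controls against 30.39, 24.2 and 14.67 FPKM in knockouts. This was the highest ratio among the 10 genes, 4.85, with a log2 difference of 2.02 (SE 0.29). Mup18 had 4.36 and 4.28 FPKM in controls against 17.66, 14.57 and 9.48 FPKM in knockouts. Its ratio of means was 3.22 and its log2 difference 1.45 (SE 0.24). Both genes had separate groups, and at these levels the added 1 FPKM makes the log2 difference understate the ratio. With 10 FPKM added it was 1.14 for Mup8 and 0.72 for Mup18. Mup18 was at 10.1 FPKM and Mup9 at 53.6 FPKM over all 5 livers. No aligned base of their coding sequences differs, but there is a gap of 3 bases, and their transcripts are 930 and 864 bases long.

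Mup1 was the central member with the lowest ratio. It was at 71.26 and 53.42 FPKM in the controls, against 143.55, 79.3 and 86.39 FPKM in knockouts. Knockouts 2 and 3 lay close above control 1, and knockout 1 stood apart. Knockout over control means gave a ratio of 1.65. The log2 difference was 0.68 (SE 0.27), and 0.42 without knockout 1.

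The order of the levels, by mean FPKM over the 5 livers, was Mup20, Mup3, Mup7, Mup17, Mup21, Mup16, Mup1, Mup9, Mup8 and Mup18. Mup20 and Mup3 overlapped in range and could not be ordered. The same held for Mup17 and Mup21, for Mup16 and Mup1, for Mup1 and Mup9, and for Mup8 and Mup18. Mup7 stood apart from both of its neighbours in that order, as its highest liver was below the lowest of Mup20 and Mup3 and its lowest above the highest of Mup17. The ranges of Mup21 and Mup16 overlapped too, and so did those of Mup9 and Mup8. Within every library, however, Mup21 was above Mup16 and Mup9 above Mup8. In each of the other overlapping pairs the order changed between libraries.

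Read against all genes, the separation of groups is common in these libraries. All knockouts lay above both controls in 9 of the 10 members, 7 of 7 central and 2 of 3 peripheral, and in 2048 of the 10820 genes whose FPKM averaged at least 1 (18.9%). The opposite arrangement, all knockouts below both controls, was found in 690 genes (6.38%) and in 0 members. All 10 members passed that filter on low values. Since the members were chosen on this contrast, nothing is read from their count. The median log2 difference was 1.85 over the central members and 1.10 over all 10, beside 0.06 over all genes, 64.2% of which had a positive difference.

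No gene of the table passed the test of genotype. The limma fit over the 10820 genes, with Benjamini-Hochberg adjustment at 0.05, called 0 genes (0.0%). Its lowest adjusted p was 0.587. An unadjusted p under 0.05 was found for 757 genes, 572 higher and 185 lower in knockouts. Every statement on direction here is therefore about these 5 libraries.

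Summed FPKM depend little on how reads were divided among the summed copies, provided that each read was counted once, which is not known. For the 7 central members the sum was 4947.78 and 3534.61 FPKM in the controls, against 8737.92, 7862.56 and 6319.6 FPKM in knockouts. The groups were separate, the ratio of means was 1.80 (7640 ± 1224, SD, n = 3, against 4241 ± 999, SD, n = 2), and the log2 difference 0.86. Leaving out each library in turn moved it between 0.61 and 1.10, and without knockout 1 it was 0.75. Mup7 held between 83.27% and 93.77% of that sum, and the other 6 central members together were at 308.02 and 389.69 FPKM in the controls, against 1462.24, 1267.73 and 760.03 FPKM in knockouts, a ratio of 3.34. Reads can also be divided between central members and the other near-identical Mup rows. The sum of all Mup rows other than Mup3, Mup20 and Mup21 was 8255.83 and 6868.86 FPKM in the controls, against 17306.05, 14453.84 and 10616.36 FPKM in knockouts. Again the groups were separate, with a ratio of 1.87.

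The sum of the 3 peripheral members was 20904.8 and 23377.27 FPKM in the controls, against 26826.79, 23997.86 and 27888.25 FPKM in knockouts. Knockout 2 was close above control 2 and the groups did not overlap. The ratio of means was 1.19 and the log2 difference 0.24. Because Mup20 and Mup3 are so abundant, the peripheral genes accounted for 71.69% and 77.29% of the summed Mup FPKM in controls and 60.79%, 62.41% and 72.43% in knockouts. These shares overlapped between groups. The share of the central members was 16.97% and 11.69% in controls and 19.8%, 20.45% and 16.41% in knockouts, overlapping as well.

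**Figure D2:**
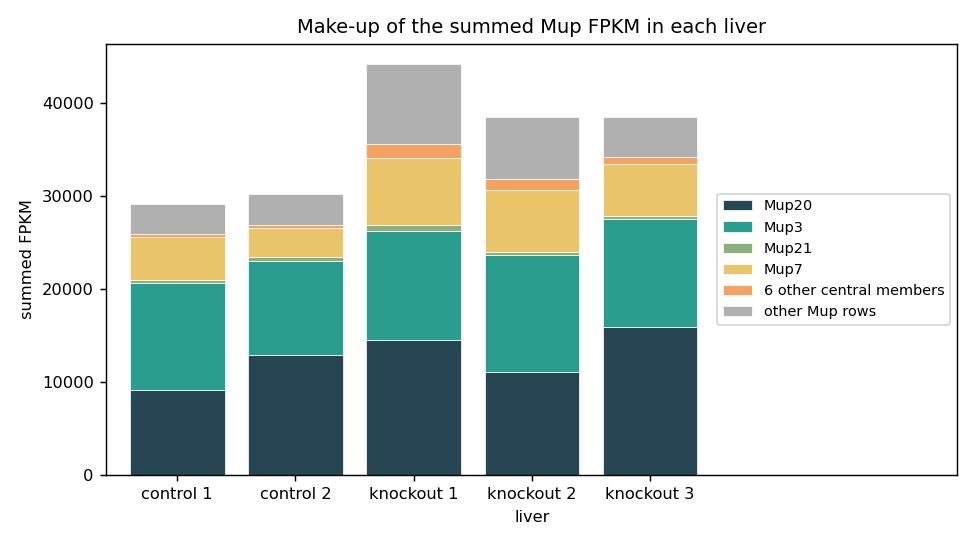
Summed FPKM of all Mup rows in each liver (stacked bars, linear axis from 0), divided into Mup20, Mup3, Mup21, Mup7, the 6 other central members and the 22 rows that are not among the 10 genes. The bars reach 29161 and 30246 FPKM in the controls, against 44133, 38452 and 38505 FPKM in knockouts; Mup20 and Mup3 fill most of each bar, and the grey part, other Mup rows, is largest in knockout 1.

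All Mup rows together made up 3.58% and 3.71% of all FPKM in controls and 5.38%, 4.82% and 4.77% in knockouts. After rescaling to a common total without the Mup rows, each of the 10 members kept a positive log2 difference. This rescaling could only raise the differences. The total without Mup rows was 784495 and 784351 FPKM in controls, against 776365, 759240 and 768475 FPKM in knockouts. In whole liver, a difference in the number of hepatocytes cannot be told apart from one in RNA per cell.

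The livers kept nearly the same order from gene to gene among the central members. Knockout 1 was the highest library in 6 of the 7, with Mup17 the exception, where knockout 2 was marginally higher. Knockouts 1, 2 and 3 followed in that order from the top in 5 of the 7. The lowest library was control 2 in 5 and control 1 in 2 (Mup8 and Mup17). Near-identical copies share reads, so this common order is not 7 separate observations. Of the peripheral genes Mup21 showed the same order of knockouts, Mup3 was highest in knockout 2 and Mup20 in knockout 3.

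**Figure D3:**
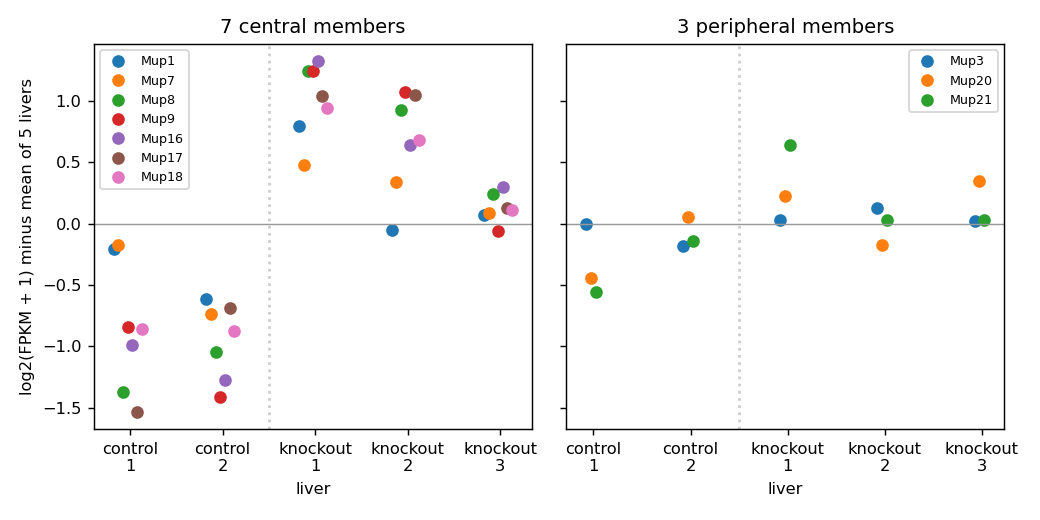
log2(FPKM + 1) of each member minus its own mean over the 5 livers, for the 7 central members (left) and the 3 peripheral members (right), with livers on the horizontal axis and a dotted line between controls and knockouts. Central members lie between -1.53 and -0.17 in controls and 5 of the 7 step down from knockout 1 to knockout 2 to knockout 3, while the peripheral members stay closer to 0, with Mup20 below 0 in knockout 2.

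The erythrocyte markers have their highest sum in the same library. Of the 6, 5 passed the filter on low values, and all 5 had a higher mean in knockouts (median log2 difference 1.68, 0 of 5 past the test), while Slc4a1 was at or near 0 in every library. Their sum in knockout 3, 140.5 FPKM, lay within the control range of 135.8 to 146.1 FPKM. The central members were chosen on this contrast, so their levels in that library are not read against the erythrocyte markers. The part of blood RNA in the levels of Mup genes in knockout 1 was not tested. The summed hepatocyte markers were lowest in knockouts 2 and 1, at 67027 and 68802 FPKM, against 84166 and 78808 FPKM in controls and 82373 FPKM in knockout 3, with a median log2 difference of -0.08 over the 8 genes.

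The other Mup genes were looked at as the nearest comparison. Over the 84 pairs of such a gene with a central member the median coding identity was 98.9%, with a range from 89.2% to 99.82%. Of 12 further protein-coding rows, Mup4 and Mup5 were listed at 0 in every library and Mup6 at no more than 0.36 FPKM. The other 9 passed the filter, and all 9 had a positive log2 difference with a median of 0.96. At an unadjusted p under 0.05 there were 6 of them, beside 5.29% of all genes tested that were higher at that limit, and none passed the adjusted limma test. These genes share sequence with each other and with the members, which were chosen on this contrast. They are not separate observations, and nothing is read from their count. Without knockout 1 their median was 0.60.

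Mup15 was the most similar to Mup16 and Mup17 in size of difference, at 502.92 and 637.42 FPKM in the controls, against 3081.69, 2316.12 and 1207.13 FPKM in knockouts. Its log2 difference was 1.85 (SE 0.37, limma adjusted p = 0.675). Mup14, at 613.86 and 587.16 against 1508.87, 1187.87 and 895.57 FPKM, had a log2 difference of 0.96 (adjusted p = 0.675). Mup11, Mup13 and Mup2 also had separate groups, with log2 differences of 1.08, 1.25 and 0.75. Mup12, Mup19 and Mup10 had overlapping groups and log2 differences of 0.70, 0.99 and 0.66.

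Mup22 was the exception in size. It had 1510.54 and 1374.48 FPKM in the controls, against 1845.09, 1644.56 and 1325.46 FPKM in knockouts, with knockout 3 below both controls. Its log2 difference was 0.14 (SE 0.15, limma adjusted p = 0.841). No window of 100 bases was unique to Mup22 or Mup19. Among the pseudogene rows only Mup-ps16 had a mean of at least 1 FPKM, at 9.62 and 23.55 FPKM in the controls, against 40.71, 34.54 and 10.33 FPKM in knockouts. Its groups overlapped.

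**Figure D4:**
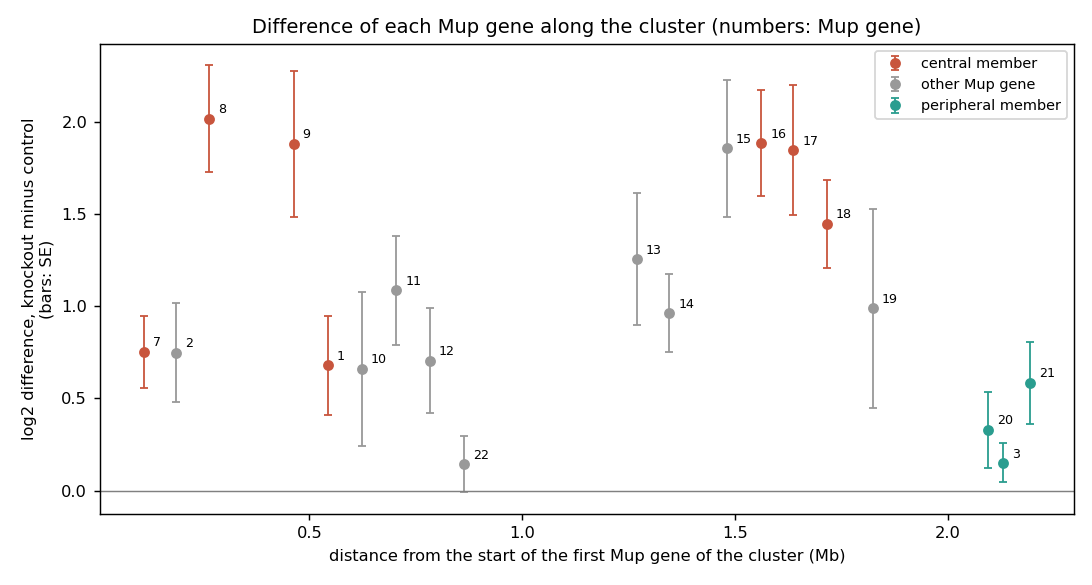
log2 difference (knockout minus control, bars SE) of the 10 members and the 9 other Mup genes with a mean of at least 1 FPKM, against the distance of each gene's middle from the start of the first Mup gene. The peripheral members at the right end, from 2.10 to 2.19 Mb, lie at 0.15 to 0.58, Mup15 to Mup18 near 1.6 Mb lie at 1.45 to 1.88, and Mup22 at 0.86 Mb lies at 0.14.

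Along the cluster, neighbouring genes often had differences of like size without a single trend. Mup15, Mup16, Mup17 and Mup18, which follow each other between 1.48 and 1.72 Mb from the start of the first gene, had log2 differences between 1.45 and 1.88. Mup8 and Mup9, at 0.26 and 0.46 Mb, had 2.02 and 1.88, while Mup2, which lies before Mup8, had 0.75 and Mup1, which follows Mup9, had 0.68. The 3 peripheral genes at the far end had between 0.15 and 0.58. The closest gene outside the cluster with a mean of at least 1 FPKM was taken on each side. Snx30, a sorting nexin gene on the low side, was at 0.91 and 1.13 FPKM in the controls, against 1.04, 1.31 and 1.56 FPKM in knockouts (ratio 1.28, log2 difference 0.19, limma adjusted p = 0.812). Slc31a2, a copper transporter gene on the high side, was at 4.10 and 4.23 against 4.40, 3.95 and 4.51 FPKM (ratio 1.03, log2 difference 0.03, adjusted p = 0.956). Both had overlapping groups, and the ratio of Snx30 was above those of Mup3 and Mup20. Of 53 non-Mup genes within or up to 1 Mb outside the cluster, 19 passed the filter. Their median log2 difference was 0.08, with 15 above 0 and 0 past the test. By unadjusted p, Ugcg, Rgs3, Ambp and Fkbp15 came first, with log2 differences of 0.24, 1.21, -0.13 and 0.15.

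**Figure D5:**
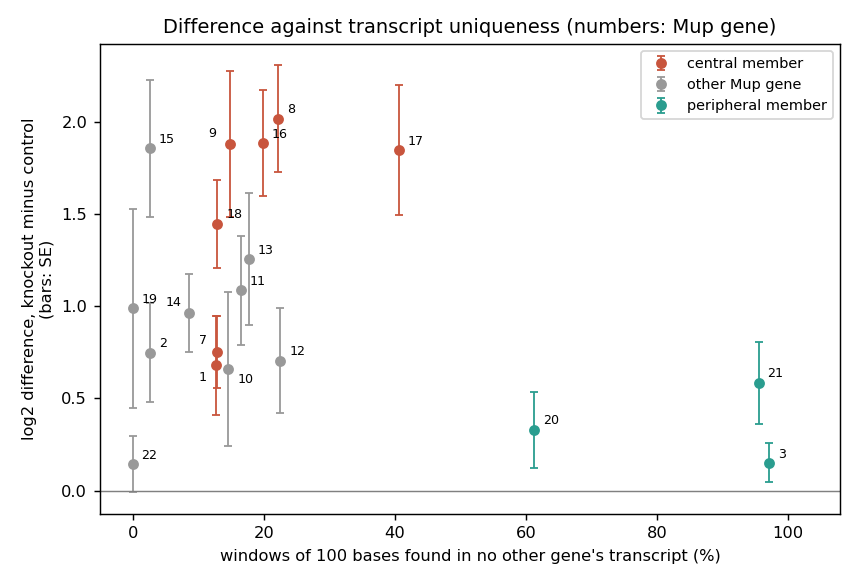
log2 difference (knockout minus control, bars SE) of the 10 members and the 9 other Mup genes with a mean of at least 1 FPKM, against the share of each gene's 100-base windows found in no other gene's transcript. The 3 peripheral members stand at 61.2% to 97.1% and below 0.6. The central members and the other Mup genes shown stand at or below 40.6% and spread from 0.14 to 2.02. Mup4, Mup5 and Mup6, too low to be shown, have shares of 100%, 98.7% and 100%.

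Genes with few windows of their own covered the whole range of differences, from Mup22 to Mup8. Between Mup7, Mup1 and Mup18, whose shares of unique windows were 12.9%, 12.8% and 12.9%, the log2 differences were 0.75, 0.68 and 1.45. The central and peripheral genes differ in uniqueness and in sequence together, and the part of read assignment in their differences was not tested.

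Promoter sequence was available for 6 of the 10 members, Mup3, Mup7, Mup9, Mup17, Mup18 and Mup21, in the RefSeq windows of GRCm38.p6 (250 bases before to 50 after each start). A homologous stretch of these windows is shown for 5 of them because it holds the contrast between central and peripheral members outside the coding sequence. It lies next to the annotated start in Mup7 and farther upstream in the other 4, whose starts are annotated elsewhere. Sequences are on the minus strand of chromosome 4, 5′ to 3′, and capitals mark bases that differ from Mup17. They lie at chr4:61595963-61596075 (Mup17), chr4:61674221-61674333 (Mup18), chr4:60070477-60070589 (Mup7), chr4:62087400-62087511 (Mup3) and chr4:62150918-62151029 (Mup21).

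Mup17: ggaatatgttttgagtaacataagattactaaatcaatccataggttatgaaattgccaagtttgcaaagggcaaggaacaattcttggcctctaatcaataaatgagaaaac
Mup18: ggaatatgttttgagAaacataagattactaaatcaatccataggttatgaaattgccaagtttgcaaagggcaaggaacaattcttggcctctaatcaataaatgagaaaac
Mup7: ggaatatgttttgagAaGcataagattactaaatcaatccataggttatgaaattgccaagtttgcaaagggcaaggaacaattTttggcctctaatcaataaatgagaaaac
Mup3: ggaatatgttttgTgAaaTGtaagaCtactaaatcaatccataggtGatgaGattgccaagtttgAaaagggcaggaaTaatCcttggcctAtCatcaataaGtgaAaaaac
Mup21: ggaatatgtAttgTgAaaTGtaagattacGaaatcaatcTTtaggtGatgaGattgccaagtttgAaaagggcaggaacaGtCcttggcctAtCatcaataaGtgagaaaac

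Against Mup17, the Mup18 stretch had 1 substitution and that of Mup7 had 3. Mup3 had 14 substitutions and Mup21 had 16, each with 1 base deleted. The motifs TTCNNNGAA (STAT5), TGTTCT (a glucocorticoid receptor half-site), CAAAG (a short HNF4-like core) and TATAAA (a core promoter box) were searched on both strands of the 250 bases before each start. TTCNNNGAA and TATAAA were in 0 of the 6 windows, beside 7.02% and 12.4% of 32851 RefSeq windows of the same length. Only the exact word TATAAA was searched, and the Mup9 window holds the similar tatataag. The search therefore does not show that a core promoter box is absent. Counting from the start, TGTTCT was found at -204 in Mup3 and at -198 in Mup21, and in none of the 4 central windows, beside 16.1% of all windows. In Mup3 and Mup21 the match lies just before the stretch shown above. The windows of Mup9 and Mup17 begin too late to hold that place whole. Among the central windows only those of Mup7 and Mup18 can be compared there. CAAAG was in 6 of 6, beside 48.6% of all windows. These are matches of letters in these windows only.

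Genes of the growth hormone pathway did not pass the test, and neither did any other of the 10820 genes. Of a list of 32 receptors, signal carriers, inhibitors and hepatocyte transcription factors, 29 passed the filter and 0 were past the threshold. The difference was positive in 23 and negative in 6, beside 64.2% positive over all genes, and the median was 0.13. All knockouts lay above both controls in 7 and below both in 0, beside 18.9% and 6.38% of all genes. At an unadjusted limma p under 0.05, 3 were higher and 0 lower, beside 5.29% of all genes that were higher. This list was chosen with earlier results of these data known, so nothing is read from its counts. The growth hormone receptor gene Ghr was at 231.46 and 240.48 FPKM in the controls, against 263.11, 220.77 and 225.04 FPKM in knockouts. Its groups overlapped, with a log2 difference of 0.00 (SE 0.11, limma adjusted p = 0.997). Jak2, the kinase bound to the receptor, had a log2 difference of -0.01 (adjusted p = 0.992). The differences of Stat5b and Stat5a were 0.13 (adjusted p = 0.845) and 0.11 (adjusted p = 0.853), both with overlapping groups.

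Among direct targets of the hormone, Igf1, the circulating growth factor, was at 378.03 and 304.04 FPKM in the controls, against 361.24, 371.88 and 356.01 FPKM in knockouts (limma adjusted p = 0.851). Igfals, its carrier subunit, had a log2 difference of 0.12 (adjusted p = 0.881). The feedback inhibitor Cish was at 3.29 and 2.70 FPKM in the controls, against 1.58, 8.74 and 26.80 FPKM in knockouts (log2 difference 1.16, SE 0.88, adjusted p = 0.783). Its groups overlapped, and it was lowest in knockout 1, where 6 of 7 central Mup genes were highest, and highest in knockout 3. Socs2, another feedback inhibitor, had the same order of knockouts and overlapping groups, at 9.98 and 5.13 against 6.01, 9.74 and 18.49 FPKM (adjusted p = 0.821).

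By unadjusted p the list was led by Socs3, Foxa2, Zbtb20 and Esr1. Their log2 differences were 0.72, 0.71, 0.49 and 0.43, with limma adjusted p of 0.70 in each case.

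Other male-biased liver genes had mostly positive differences in these libraries. All 25 of the list passed the filter, and 22 were higher and 3 lower in knockouts, beside 64.2% of all genes with a positive difference. The median log2 difference was 0.38, and 0 passed the test. The list was chosen with earlier results of these data known, so nothing is read from its counts. The median was 0.73 without control 1 and 0.17 without control 2. Moxd1, a monooxygenase-like gene, was at 1.41 and 0.43 FPKM in the controls, against 30.09, 42.56 and 8.03 FPKM in knockouts, a log2 difference of 3.63 (SE 0.64, limma adjusted p = 0.675). The complement gene C6, the glucuronosyltransferase gene Ugt2b1 and the steroid dehydrogenase gene Hsd17b2 had log2 differences of 0.69, 0.38 and 0.65 (adjusted p = 0.70 for each).

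Of 25 female-biased genes only 9 passed the filter, 8 of them lower in knockouts, with a median of -0.17 and 0 past the test. Nothing is read from the counts of this list either, as it was chosen in the same way. Cyp2b9, a cytochrome P450 gene, was at 1.08 and 7.73 FPKM in the controls, against 0, 0.23 and 0.06 FPKM in knockouts (log2 difference -1.96, limma adjusted p = 0.70). Cyp4a10, Cyp39a1 and Obp2a followed with -2.00, -0.62 and -0.80. Without knockout 1 the median over the list was 0.02, of the opposite sign. Of the other lipocalin genes, the family to which MUPs belong, 10 of 12 passed the filter and 8 were lower, with a median of -0.12 and 0 past the test. Obp2a, C8g, Ambp and Rbp4 had log2 differences of -0.80, -0.15, -0.13 and -0.10. Rbp4, the plasma retinol carrier, was at 4376.35 and 3957.26 FPKM in the controls, against 3987.27, 3590.52 and 4079.95 FPKM in knockouts, and its groups overlapped.

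The genes with the profile nearest to the central sum were found among 10028 genes outside the family, by the root mean square (RMS) difference of centred log2(FPKM + 1) over the 5 livers. They were Fam89a, Ap4m1, Lad1, Zfp511 and Pim1, with RMS differences between 0.11 and 0.14, against a spread of the central sum itself of 0.47. Their levels were all below 16 FPKM. Nearest to Mup20 were Bpgm, Zfp217, Lzic, Arhgef16 and Ier5, with RMS differences between 0.05 and 0.08 against a spread of 0.28. With 5 libraries and this many genes, such likeness is a description of these libraries.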

How the data were processed

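Liver RNA-seq of 5 libraries was analysed. The deposited values are FPKM per gene symbol to 2 decimals, and HISAT2, StringTie, DESeq2 and the mm10 build are named, without roles, in the submitters' processing notes. Versions, strand use and the treatment of reads that fit several places are not given in the sources used here. Of 2 deposited tables with 33589 identical rows, 1 was used, and 220 rows repeated a symbol. Low FPKM did not resolve into whole reads, so depth is unknown. At the best of many trial depths, between 34.9% and 37.3% of values lay within 0.1 of a whole number. The share by chance, 20%, holds for a single fixed depth and is no baseline for these best shares. Genotype was fitted by limma 3.58.1 (R 4.3.3), using a variance prior with a trend, on log2(FPKM + 1), for the 10820 genes whose FPKM averaged at least 1, two-sided, with Benjamini-Hochberg adjustment and a threshold of 0.05. The script was tested on simulated data. Ratios are of mean FPKM. Overlap means that the lowest knockout is not above the highest control, or the reverse.

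The members and gene lists were chosen with earlier results of these data known, so members carry no p-value and counts over the lists are descriptions. Named beside the members are the other Mup rows with a mean FPKM of at least 1, the 4 genes of each list with the smallest unadjusted p, 8 growth hormone genes in any case, the nearest genes to 2 profiles, the genes flanking the cluster, Heg1 and Lyve1. Uniqueness, identity and gene models came from GENCODE release 21 (GRCm38), one transcript per gene aligned with Biopython 1.88, and promoters from RefSeq. Alternatives were the pseudocount (0.1 and 10), 3 scalings, 3 filters, library weights, the replicate number as a block and leaving out each library. No protein sequence was used here. One further erythrocyte marker of the planned list is not reported here.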

Additional observations from a re-analysis of the deposited data

How the results depend on the processing

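All 10 members kept a positive log2 difference under each of the 11 alternatives run for them. For the 9 with separate groups, leaving out a library, another pseudocount or the block could not turn the sign. Rescaling to the total without Mup rows could only raise the differences. The other scalings could lower them, and the sign held. The difference of the central sum stayed between 0.61 and 1.10 and that of the peripheral sum between 0.16 and 0.33. Values outside 1 SD were those of Mup3 (0.24 without control 1, 0.06 without control 2), Mup7, Mup8 and Mup18 (in the report), and the share of Mup7 in the Mup sum, whose difference was 5.63 percentage points without control 1 and 0.12 without control 2. Mup20 and Mup21 shares changed sign in 2 of 6 alternatives each.

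The count of genes past the threshold was 0, and 1 with a pseudocount of 10 (Cyp4a14, lower). Leaving out each library gave between 0 and 1 (Hamp, without control 1). With the replicate number as a block it was 5, 4 higher and 1 lower, among them Moxd1 of the male-biased list, Mup11, and the members Mup9 and Mup16, which were chosen on this contrast. The labels do not say that a number links livers, only 2 numbers are shared, and their deviations correlated at 0.23 and 0.20 over genes, so the block is not used as the result. The cause of these moves was not tested.

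The median of the other Mup genes was 0.56 with a pseudocount of 10 and between 0.60 and 1.16 with each library left out. That of the male-biased list was between 0.17 and 0.73 with each library left out, and that of the female-biased list turned positive, 0.02, in 1 of 15 alternatives. Single central members cannot be measured more finely than shared reads allow, and 2 controls limit every size given. Where 1 control is left, it is assumed to vary as the knockouts do.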
